A study of Mus musculus with 6 samples.

Results

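The mitochondrial respiratory chain and ATP synthase were followed through 93 genes in naive CD4 T cells sorted for the absence or presence of Ly-6C on their surface. The genes were taken by name: every probe set whose platform annotation gave 1 symbol starting with Nduf, Sdh, Uqcr, Cox4, Cox5, Cox6, Cox7, Cox8 or Atp5 was a member, and where a gene had several probe sets the one with the highest mean over the 6 arrays stood for it. This left 93 of 19938 genes, drawn from 119 of 28853 probe sets. The rule used names and mean levels and no measured difference, but it was set with earlier results of these data known. The label of the group fits its content, since these prefixes name subunits of the 5 complexes and, for Ndufaf and Sdhaf, factors that assemble them.

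The donors of both groups were C57BL/6 Foxp3-GFP mice, 6 weeks old, whose regulatory T cells fluoresce and can be sorted away, and the tissue was peripheral lymph node. Cells of both groups were sorted as positive for CD4 and TCRβ, low for CD44, and negative for CD8, CD25 and Foxp3, and they differed by Ly-6C alone. Each group had 3 arrays, called biological replicates in the labels, with no statement of which or how many mice gave each sample. If the samples of a group were not from separate mice, the p-values measure only the spread between these samples. Values are log2 expression, so a difference of 1 is a doubling; differences subtract the mean of the Ly-6C-positive arrays from that of the Ly-6C-negative ones.

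The respiratory chain passes electrons from NADH through complex I, and from succinate through complex II, to complexes III and IV and on to oxygen, and complex V uses the proton gradient this builds to make ATP. Most subunits are encoded in the nucleus and imported, while a few core subunits of complexes I, III, IV and V are encoded in the mitochondrial genome. Resting naive T cells draw much of their ATP from oxidative phosphorylation, and glycolysis rises when they are activated. In bulk samples such as these, fewer cells of a type and less RNA per cell cannot be told apart.

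The array medians lay between 6.25 and 6.29, and transcripts of Ly-6C followed the sort: the probe sets shared by Ly6c1 and Ly6c2 differed by -3.18 and -2.59, with no overlap of the groups. Of the 6 T cell genes listed, 5 were measured, and their summed level was 13.89 to 13.99 in Ly-6C-positive and 13.93 to 13.96 in Ly-6C-negative arrays. The summed level of 5 of 6 B cell genes was 7.84 to 7.86 against 7.81 to 7.85, that of 6 of 6 NK cell genes 7.58 to 7.82 against 7.76 to 7.89, that of 7 of 7 myeloid genes 8.21 to 8.33 against 8.31 to 8.50 and that of 6 of 6 dendritic cell genes 7.90 to 8.01 against 7.88 to 7.96. Erythroid genes (2 of 5) summed to 6.52 to 6.66 against 6.48 to 6.66, and stromal genes (5 of 5) to 10.2 to 10.4 in both groups. The stromal sum came mainly from Pecam1, at 9.76 to 10.07, while the other stromal genes lay between 5.4 and 7.1. The genes of the sort (6 of 8) summed to 11.03 to 11.12 against 10.85 to 11.13, with Cd4 the brightest. Such sums can hide single genes. Cd44 measured 7.28, 7.20 and 7.22 against 6.99, 6.92 and 7.04, a difference of -0.25 without overlap (limma adjusted p = 0.427). Eomes, from the NK cell list, differed by 0.27 without overlap (limma adjusted p = 0.473). The rest of that list overlapped: Nkg7 (0.17) and Klrb1c (0.0083) were higher, and Ncr1 (-0.054), Klrk1 (-0.053) and Klra8 (-0.012) lower. Cd28, higher, and Pax5 and Klf1, lower, were also without overlap, as were 12.6% of all genes. The other measured genes of their lists overlapped. They differed by -0.016 to 0.013 for T cells and -0.0046 to 0.10 for B cells, and by 0.076 for the erythroid gene Alas2. None of the measured markers passed the test. No background measure is given, so it is not known which of the dimmer markers were above background.

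No respiratory chain gene passed the test between Ly-6C-negative and Ly-6C-positive cells. The test was limma with Benjamini-Hochberg adjustment over all 19938 genes and a threshold of adjusted p 0.05, which called 29 genes, or 0.145%, and 0 of the 93 members. The lowest limma adjusted p of a member was 0.613. The differences ran from -0.26 for Atp5g2 to 0.17 for Ndufb8, 78 of the 93 lay within 0.1 of 0, and only Atp5g2 and Cox7a1 lay beyond 0.2. The median difference was -0.0038, beside -0.0048 over all genes, and 42 members (45.2%) were above 0, beside 47.8% of all genes. That share turned with the scaling: it was 60.2%, beside 58.2% of all genes, after subtraction of array medians, and 38.7%, beside 49.0%, after a second quantile normalization. In 22 of 37 members followed through the alternatives the sign turned at least once, so the direction of small differences was not stable. Without adjustment, 2 members had a limma p under 0.05, both lower in Ly-6C-negative cells, where 6.71% of all genes had one. The groups did not overlap in 1 member, Ndufaf7, against 12.6% of all genes. The 95% interval of a difference had a median half-width of 0.23 over the members, from 0.15 to 0.49, and 91 of the 93 intervals lay within 0.5 of 0. A p above the threshold does not show that the groups were alike; these intervals give the size of difference the arrays leave possible.

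**Figure D1:**
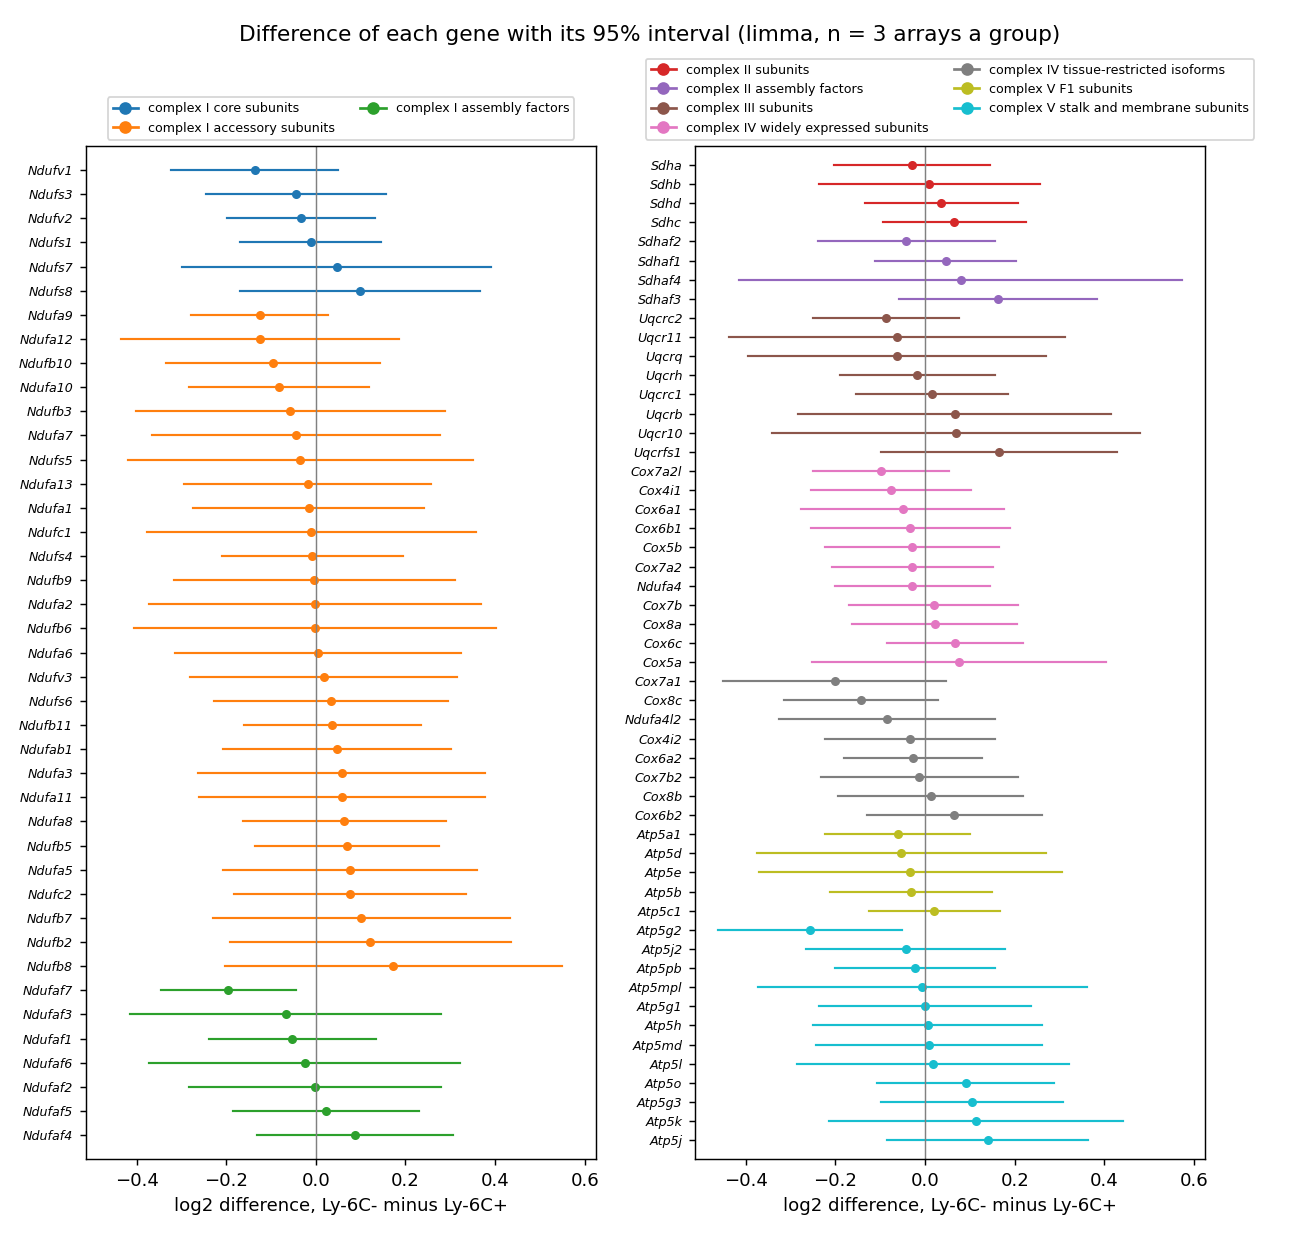
Log2 difference, Ly-6C-negative minus Ly-6C-positive, of each of the 93 genes (points) with its 95% interval from limma (lines), coloured by complex and role, n = 3 arrays a group. Nearly all intervals cross 0, and those of Ndufaf7 and Atp5g2 lie below it before adjustment over all genes.

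The spread within the Ly-6C-negative group was wider than the difference between the groups. For most members Ly-6C-negative replicate 2 was the highest of the 6 arrays and Ly-6C-negative replicate 3 the lowest. Measured as the deviation from each gene's own mean, the member median was 0.20 on replicate 2 and -0.19 on replicate 3, while on the 4 other arrays it lay between -0.044 on Ly-6C-positive replicate 1 and 0.026 on Ly-6C-positive replicate 3. Over all genes the same medians were -0.0074 and -0.0075 on those 2 arrays. The deposited values were quantile-normalized, which tends to keep such all-gene medians small. Replicate 2 was the highest array in 70 members (75.3%), against 20.6% of all genes, and replicate 3 the lowest in 69 (74.2%), against 19.9%. Both held at once in 61 members (65.6%) and in 6.82% of all genes.

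Some T cell markers had the opposite order on the same 2 arrays. The 3 of 5 measured naive T cell genes, Ccr7, Lef1 and Il7r, had a summed level of 12.63 to 12.74 in Ly-6C-positive arrays and of 12.46 to 12.91 in Ly-6C-negative ones. Lef1 was 10.73 on Ly-6C-negative replicate 2 and 11.22 on replicate 3, Il7r 11.35 and 11.84, and Ccr7 10.38 and 10.68. Cd4 was 10.30 and 10.72 and Cd3e 11.55 and 11.92, while Cd3d, at 12.30 and 12.03, and Cd3g, at 12.44 and 12.37, had the order of most respiratory chain genes. So did Zap70, at 8.99 and 8.93, and Cd8b1, at 8.04 and 7.58. The other measured T cell and sort genes, Cd28, Cd8a, Cd44, Il2ra and Foxp3, were lower on replicate 2 than on replicate 3. Over all genes, 49.6% were higher on replicate 2 than on replicate 3. The part of these marker differences in the array pattern was not tested.

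**Figure D2:**
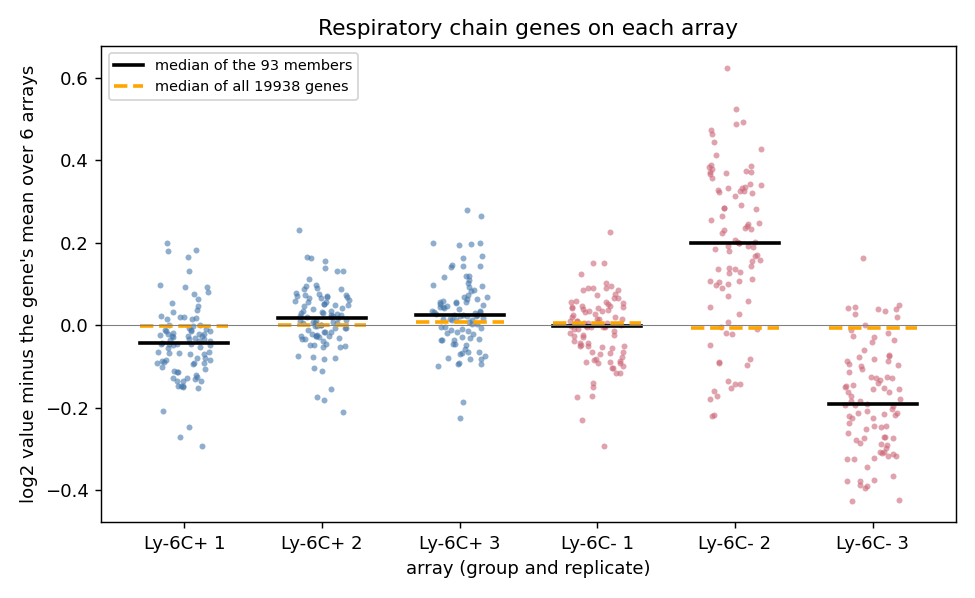
Log2 value of each of the 93 genes minus its mean over the 6 arrays, by array (points), with the member median (black line) and the median of all 19938 genes (dashed). Ly-6C-negative replicate 2 sits high (member median 0.20) and replicate 3 low (-0.19). The all-gene medians lie near 0, where quantile normalization tends to keep them.

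The SD between Ly-6C-negative arrays exceeded that between Ly-6C-positive arrays in 85 of 93 members (91.4%), against 61.6% of all genes. The median SD of a member was 0.20 in the Ly-6C-negative and 0.068 in the Ly-6C-positive group, where all genes gave 0.096 and 0.074. Members and all genes were not matched for level here either. The gap between replicates 2 and 3 had a median of 0.40 over the members, was above 0 in 81 of them and was wider than 0.5 in 33. It was widest in Uqcr10, at 0.88 or 1.84-fold, followed by Ndufb6 at 0.88, Sdhaf4 at 0.84 and Ndufb8 at 0.83. Under other scalings of the arrays the median gap was 0.44 after a second quantile normalization and 0.39 after subtraction of array medians. The deposited values were already quantile-normalized, with array medians of 6.25 to 6.29, so these scalings could move the gap only a little.

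Because these arrays belong to the same group and deviate in opposite directions, the group difference depended on which of them was in the fit. Without Ly-6C-negative replicate 2, the median difference of the members was -0.10 and 17 of 93 were above 0. Without Ly-6C-negative replicate 3 it was 0.10 and 76 were above 0. All-gene medians in the same fits, which quantile normalization also tends to keep small, were -0.0034 and -0.0031. Without both arrays, an alternative chosen after seeing the data that leaves 1 Ly-6C-negative array assumed to vary like the others, the median was -0.0069 and 44 members were above 0. No member passed the threshold in any of these fits. The groups did not overlap in 19 members without replicate 2, of which 18 were lower, and in 19 without replicate 3, of which 16 were higher. Both counts are 20.4% of the members, below the shares of all genes in the same fits, 27.0% and 24.3%.

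**Figure D3:**
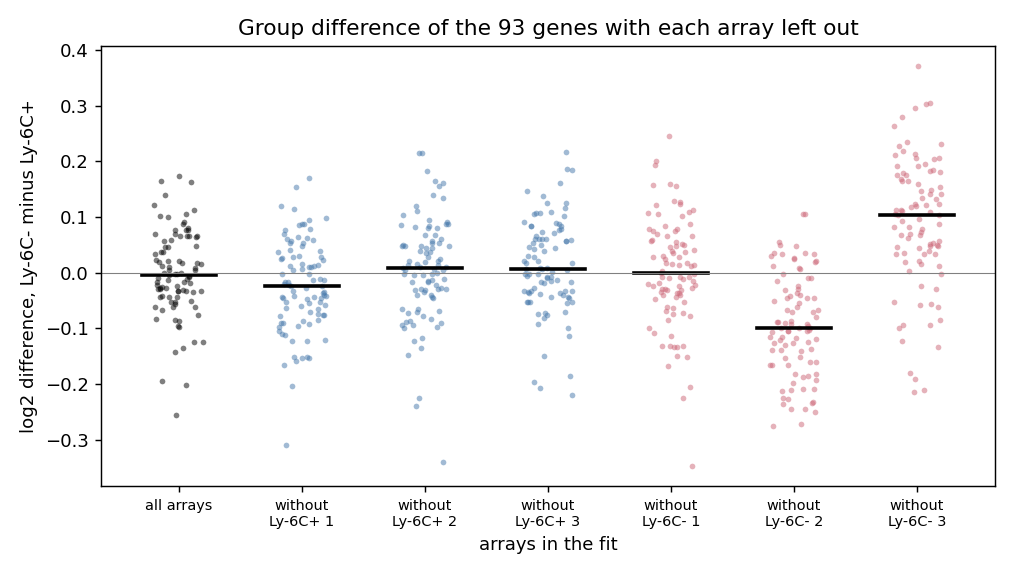
Log2 differences of the 93 genes, Ly-6C-negative minus Ly-6C-positive, with all 6 arrays and with each array left out (points are genes, black lines medians). The median moves from -0.0038 to -0.10 without Ly-6C-negative replicate 2 and to 0.10 without Ly-6C-negative replicate 3, and stays between -0.025 and 0.0075 without any of the other 4 arrays.

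Compared by replicate number, the pairs pointed different ways. In pair 1 the Ly-6C-negative array was above the Ly-6C-positive one in 58 of 93 members (62.4%) with a median difference of 0.032, in pair 2 in 76 (81.7%) with 0.19, and in pair 3 in 10 (10.8%) with -0.19. Over all genes these shares were 52.8%, 48.1% and 46.7%. All 3 pairs had the same direction in 5 members (5.38%), against 28.0% of all genes. The 5 were Ndufaf7, Ndufa9 and Cox7a2l, lower in each pair, and Sdhaf3 and Sdhc, higher in each. With the replicate number as a block in the fit, 41 genes passed over all genes and again 0 members, with a lowest limma adjusted p of 0.600 for a member.

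Complex I takes electrons from NADH and is the largest complex of the chain. Of its nucleus-encoded core subunits, which carry the flavin and iron-sulphur centres, 6 were measured, with a median difference of -0.022 and 2 above 0. Ndufv1, the flavin-binding subunit where NADH is oxidised, measured 8.68, 8.81 and 8.94 in Ly-6C-positive and 8.70, 8.73 and 8.59 in Ly-6C-negative arrays. Its groups overlapped, and the difference of -0.14 (95% interval -0.32 to 0.050) was the lowest of the core subunits (limma adjusted p = 0.842). Ndufs1, the largest iron-sulphur subunit, measured 9.79, 9.87 and 9.77 against 9.87, 9.71 and 9.83, a difference of -0.011 with a standard error of 0.070. Its lowest array was Ly-6C-negative replicate 2, the array where most members were highest. Ndufs8, another iron-sulphur subunit, had the highest difference of the core subunits at 0.099, and its Ly-6C-negative values of 8.43, 8.77 and 8.24 reached both above and below the Ly-6C-positive range of 8.31 to 8.44.

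The accessory subunits of complex I, which surround and stabilise the core, mostly showed the array pattern. In 26 of the 28 measured (92.9%) Ly-6C-negative replicate 2 was the highest array and replicate 3 the lowest, and the median gap between them was 0.59. Their median group difference was 0.0016, with 14 of 28 above 0. Ndufb8, a membrane-arm subunit, measured 9.33, 9.32 and 9.36 in Ly-6C-positive arrays, and 9.47, 9.95 and 9.11 in Ly-6C-negative arrays 1, 2 and 3. The 3 Ly-6C-positive arrays lay close together, inside the Ly-6C-negative range. The group difference of 0.17 had a standard error of 0.17 (limma adjusted p = 0.910). Ndufa9 was one of the 2 exceptions to the array pattern: it measured 10.98, 10.96 and 10.90 against 10.91, 10.80 and 10.76. Only the highest Ly-6C-negative array, replicate 1, reached the lowest Ly-6C-positive one, and the difference was -0.13 (standard error 0.068; limma adjusted p = 0.813). Ndufa10 was the other exception, with Ly-6C-negative replicate 2 lowest at 10.71 and the other 5 arrays between 10.90 and 11.07.

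Among the 7 measured assembly factors of complex I, the groups did not overlap in 1, Ndufaf7, as in 12.6% of all genes. Ndufaf7 encodes a methyltransferase needed for the assembly of complex I. It measured 8.60, 8.46 and 8.49 in Ly-6C-positive and 8.34, 8.33 and 8.29 in Ly-6C-negative arrays. Every Ly-6C-negative array was below every Ly-6C-positive one, and the gap between Ly-6C-negative replicates 2 and 3 was 0.036. The difference was -0.20 with a standard error of 0.067, or 1.14-fold lower (95% interval -0.35 to -0.045), and it did not pass (limma adjusted p = 0.613; 0.426 to 0.981 over the alternatives). The remaining 6 factors differed by -0.067, for Ndufaf3, to 0.087, for Ndufaf4.

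Complex II is succinate dehydrogenase, which links the TCA cycle to the chain and has no subunit from the mitochondrial genome. Its 4 subunits differed by -0.029 for Sdha, 0.0099 for Sdhb, 0.037 for Sdhd and 0.065 for Sdhc. Sdha, the flavin subunit that oxidises succinate, measured 10.52, 10.65 and 10.55 against 10.62, 10.42 and 10.59, with Ly-6C-negative replicate 2 the lowest array. Sdhb, the iron-sulphur subunit, measured 9.52, 9.55 and 9.72 against 9.59, 9.84 and 9.39, with the same array the highest. Subunits of the same complex therefore differed in opposite directions on that array. Of the 4 assembly factors, Sdhaf3 differed most, measuring 7.04, 7.36 and 7.36 against 7.34, 7.53 and 7.38. One low Ly-6C-positive array, replicate 1, set much of the difference of 0.16 (standard error 0.099; limma adjusted p = 0.842), which was 0.058 without that array. Sdhc measured 9.97, 10.06 and 10.05 against 9.99, 10.17 and 10.11, higher in each numbered pair though its groups overlapped (limma adjusted p = 0.919).

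Complex III passes electrons from ubiquinol to cytochrome c. Its 8 measured subunits had a median difference of -0.0006 with 4 above 0, and 6 of them had Ly-6C-negative replicate 2 highest and replicate 3 lowest, with a median gap of 0.61. Uqcrfs1, the Rieske iron-sulphur protein, measured 9.61, 9.67 and 9.63 in Ly-6C-positive and 9.82, 10.06 and 9.53 in Ly-6C-negative arrays. Replicates 1 and 2 of the Ly-6C-negative group were above all Ly-6C-positive arrays and replicate 3 was below them. The difference of 0.17 (standard error 0.12; limma adjusted p = 0.875) was 0.30 without Ly-6C-negative replicate 3 and 0.036 without Ly-6C-negative replicate 2. Uqcr10, a small membrane subunit, measured 9.45, 9.52 and 9.72 against 9.60, 10.09 and 9.21, a difference of 0.069. Of the core proteins, Uqcrc2 did not follow it, with its lowest value, 10.18, on Ly-6C-negative replicate 2 and 10.32 to 10.40 elsewhere. Uqcrc1 lay between 8.15 and 8.33 on all arrays. It was 8.32 on Ly-6C-negative replicate 2 and 8.22 on replicate 3, the order of Uqcr10 with a narrower gap.

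**Figure D4:**
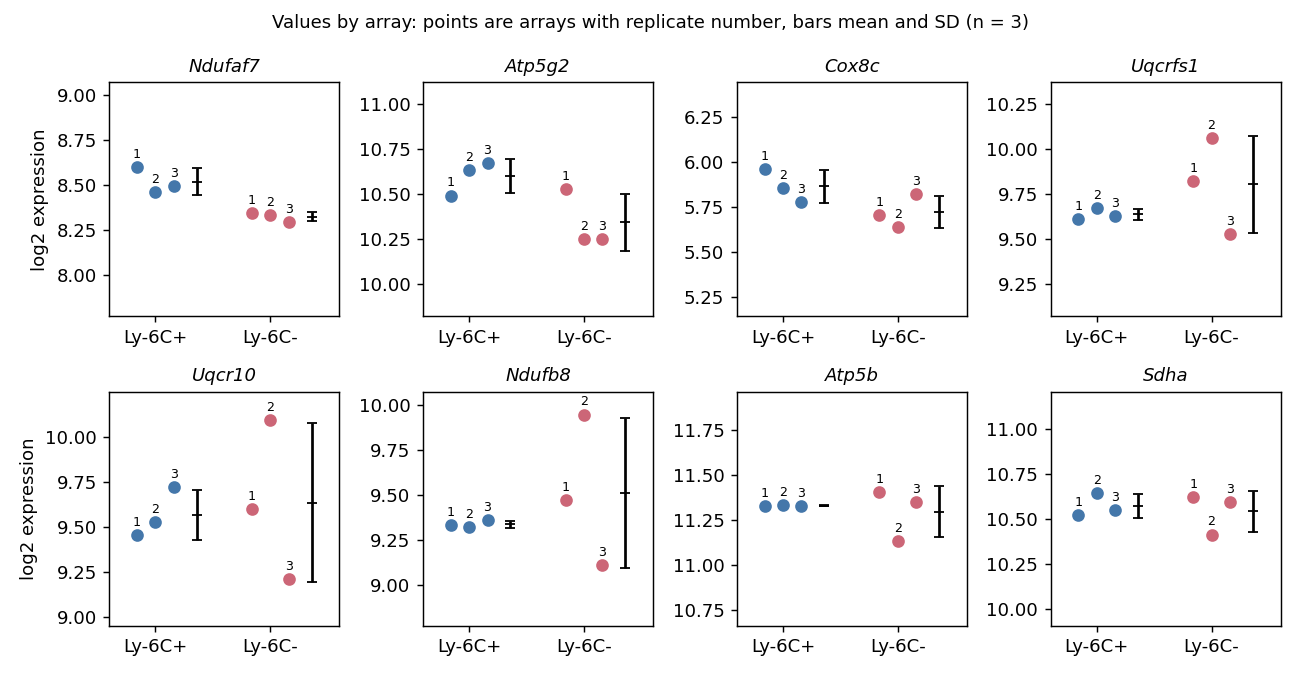
Log2 expression of 8 members by array (points, with replicate number) and the mean with SD of each group (n = 3); every panel spans the same height of 1.3 log2 units around the gene's mean. The Ly-6C-negative arrays of Uqcr10, Ndufb8 and Uqcrfs1 spread with replicate 2 high and 3 low, and Atp5b and Sdha are lowest on replicate 2. Ndufaf7 is lower on every Ly-6C-negative array, and the groups did not overlap in 12.6% of all genes.

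Complex IV, cytochrome c oxidase, reduces oxygen, and several of its nuclear subunits exist as widely expressed and tissue-restricted isoforms. The 11 widely expressed members, among them Ndufa4, now counted as a subunit of complex IV, and the supercomplex factor Cox7a2l, had a median difference of -0.028 with 4 above 0. In 8 of them Ly-6C-negative replicate 2 was highest and replicate 3 lowest, with a median gap of 0.28 over the 11. Cox4i1, the subunit at which ATP inhibits the enzyme, measured 11.64, 11.72 and 11.75 against 11.67, 11.72 and 11.48, a difference of -0.076 with a standard error of 0.080. Cox5a measured 9.86, 10.01 and 9.66 against 9.86, 10.26 and 9.65 and had the highest difference of the 11, 0.076 (standard error 0.15). Cox7a2l measured 12.00, 12.05 and 12.10 against 11.90, 12.03 and 11.93, and its difference of -0.099 (standard error 0.068) was the lowest (limma adjusted p = 0.872).

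The 8 tissue-restricted members, among them isoforms known from muscle, lung or testis, did not show the array pattern in any case. Of these, 0 of 8 had Ly-6C-negative replicate 2 highest and replicate 3 lowest together, and their median gap was -0.0072. Their median difference was -0.030, with 2 of 8 above 0. Cox7a1, the heart and muscle isoform, measured 6.16, 5.78 and 6.23 against 5.90, 5.78 and 5.88, a difference of -0.20 (standard error 0.11; limma adjusted p = 0.816). It was -0.34 without Ly-6C-positive replicate 2, the lowest array of its group, and -0.11 without Ly-6C-positive replicate 3. Cox7a2, its widely expressed counterpart, differed by -0.028. Cox8c, known from testis, measured 5.96, 5.85 and 5.78 against 5.70, 5.64 and 5.82 and differed by -0.14, while Cox8b differed by 0.013 and Cox8a, its widely expressed counterpart, by 0.021. For the remaining isoform pairs the tissue-restricted and widely expressed gene differed by -0.034 and -0.076 for Cox4i2 and Cox4i1, -0.026 and -0.050 for Cox6a2 and Cox6a1, 0.065 and -0.033 for Cox6b2 and Cox6b1, -0.085 and -0.028 for Ndufa4l2 and Ndufa4, and -0.013 and 0.019 for Cox7b2 and Cox7b. Whether the tissue-restricted isoforms were above background on these arrays is not known.

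Complex V is the ATP synthase, with a catalytic F1 head on a stalk and a membrane ring turned by protons. The 5 measured F1 genes had a median difference of -0.033, with 1 above 0, Atp5c1 of the central stalk at 0.021. Atp5b, the catalytic beta subunit, measured 11.33, 11.33 and 11.33 in Ly-6C-positive and 11.40, 11.14 and 11.35 in Ly-6C-negative arrays. The Ly-6C-positive SD was 0.0027 and the Ly-6C-negative SD 0.14, and the low value was replicate 2. Atp5a1, the alpha subunit, had the same lowest array at 10.85, with the others between 10.96 and 11.06. Atp5e, the small epsilon subunit, went the other way, with 11.24, 11.44 and 11.35 against 11.32, 11.66 and 10.95. The alpha and beta genes of the head and the epsilon gene therefore had opposite orders on Ly-6C-negative replicates 2 and 3.

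The 12 stalk and membrane genes of complex V had a median difference of 0.0072, with 7 above 0, and 9 showed the array pattern. Atp5g1, Atp5g2 and Atp5g3 encode the same c subunit of the proton-driven ring, each with its own import sequence. Atp5g2 measured 10.49, 10.63 and 10.67 in Ly-6C-positive and 10.53, 10.25 and 10.25 in Ly-6C-negative arrays. Replicates 2 and 3 of the Ly-6C-negative group were below all Ly-6C-positive arrays and replicate 1 was within their range. The difference of -0.26 (standard error 0.092, 95% interval -0.46 to -0.051), or 1.19-fold lower, was the furthest from 0 of all members and did not pass (limma adjusted p = 0.632; 0.532 to 0.996 over the alternatives). It was -0.21 without Ly-6C-negative replicate 2 and -0.35 without Ly-6C-negative replicate 1. Its 2 further probe sets gave -0.21 and -0.28. Atp5g3 measured 11.06, 11.13 and 11.03 against 11.28, 11.28 and 10.98 and differed by 0.11 (standard error 0.091), and Atp5g1 differed by -0.00014. Atp5j, coupling factor 6 of the stalk, had the highest difference of this group, 0.14 (standard error 0.10; limma adjusted p = 0.875).

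Across all members, 10 (10.8%, against 24.4% of all genes) had Ly-6C-negative replicate 2 as the lowest array in place of the highest: Ndufs1, Ndufa10, Sdha, Sdhaf2, Uqcrc2, Atp5a1, Atp5b, Atp5g2, Cox6a2 and Cox8c. These were named after their values were seen. Other subunits of the same complexes, such as Ndufs8, Sdhb and Uqcrfs1, were highest on that array. Genomic length moved with the gap between Ly-6C-negative replicates 2 and 3. Over 18565 protein-coding genes with a length in RefSeq (GRCm38.p6), Spearman's rho between the gap and the genomic length was -0.19, and over the 93 members it was -0.23, all from the same 2 arrays. The members had a median genomic length of 7495 bases, against 19172 for protein-coding genes. With the genes cut by length into 5 equal bins, the median gap over all genes was 0.044, 0.023, -0.0074, -0.036 and -0.035 from the shortest bin to the longest. Over the members it was 0.50 in the shortest bin (29 members), 0.40 in the next (41 members), 0.28 in the middle one (13 members), -0.036 in the fourth (6 members) and 0.29 in the longest (4 members). The last 3 bins hold under 20 members each, and in the fourth the members' gap was close to that of all genes. The part of gene length, transcript length or RNA quality in the array pattern was not tested.

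Promoter sequences of the members were examined for the letters bound by NRF1, by ETS factors such as GABPA and by YY1, factors known to drive nuclear genes of the respiratory chain. RefSeq promoter windows (GRCm38.p6), each from 250 bases before to 50 after a transcript start, were matched for 77 of the 93 genes, which have 82 windows. On either strand, GCGCATGCG, for NRF1, was found in 10 of the 82 (12.2%) and in 1.75% of all 32851 windows of that length. CCGGAAGT, for ETS factors, was found in 5 (6.10%) against 3.89%, and AAGATGGC, for YY1, in 10 (12.2%) against 2.75%. None of the 3 is contained in another, and the NRF1 letters nearly read the same on both strands. At least 1 motif was found in 24 of the 77 genes, and the array pattern, with Ly-6C-negative replicate 2 highest and 3 lowest, held in 20 of these 24 (83.3%) and in 35 of the 53 others (66.0%), with median gaps of 0.40 and 0.40. A match is a description of the letters and not a bound site.

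The stretches shown run from 120 bases before to 30 after the start, 5′ to 3′ on the gene's strand, with the motif letters in capitals. Atp5g2 is shown as the member furthest from 0 between the groups. The others were taken 1 for each motif in turn, as the member not yet shown, with 1 window and the motif in this stretch, that had the widest gap between Ly-6C-negative replicates 2 and 3: Uqcr11 for NRF1, at 0.75, then Atp5h for ETS factors, at 0.50, and Ndufc1 for YY1, at 0.71. Uqcr11, already shown, also holds the ETS letters and has a wider gap than Atp5h. Atp5g2 lies at chr15:102671018-102671167 and holds the NRF1 letters. Uqcr11 lies at chr10:80406792-80406941 and holds those of ETS factors and NRF1. Atp5h lies at chr11:115419890-115420039 and holds those of ETS factors, and Ndufc1 at chr3:51408926-51409075 holds those of YY1. All 4 lie on the minus strand.
Atp5g2: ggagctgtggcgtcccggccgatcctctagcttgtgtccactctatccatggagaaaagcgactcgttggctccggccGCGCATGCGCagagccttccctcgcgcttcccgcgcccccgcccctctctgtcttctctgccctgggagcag
Uqcr11: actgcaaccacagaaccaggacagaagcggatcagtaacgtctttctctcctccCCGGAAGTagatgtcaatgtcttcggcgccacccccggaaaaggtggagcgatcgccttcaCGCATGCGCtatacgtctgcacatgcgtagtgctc
Atp5h: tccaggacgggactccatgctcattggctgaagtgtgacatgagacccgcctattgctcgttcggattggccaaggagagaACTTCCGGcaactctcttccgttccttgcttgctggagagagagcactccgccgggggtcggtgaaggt
Ndufc1: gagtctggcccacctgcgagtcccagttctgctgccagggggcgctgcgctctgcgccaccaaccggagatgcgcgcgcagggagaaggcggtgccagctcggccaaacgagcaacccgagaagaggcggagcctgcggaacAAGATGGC

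Uqcr11, a small subunit of complex III, measured 8.02, 8.25 and 8.34 in Ly-6C-positive and 8.06, 8.56 and 7.81 in Ly-6C-negative arrays. Atp5h, a stalk subunit of complex V, measured 11.21, 11.27 and 11.25 against 11.16, 11.54 and 11.04. Ndufc1, an accessory subunit of complex I, measured 8.25, 8.29 and 8.28 against 8.04, 8.73 and 8.02. All 3 were highest on Ly-6C-negative replicate 2 and lowest on replicate 3, whereas Atp5g2 was lowest on both.

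Of the 93 members, 18 had 2 or more probe sets, whose differences spanned a median of 0.034 within a gene. They had the same sign in 11 genes and different signs in 7, the widest span being 0.20 for Uqcrb, whose 3 probe sets gave 0.066, 0.12 and -0.077. For Ndufa11 the pair gave 0.059 and -0.12. Probe sets listed under 1 symbol may also match near-identical copies elsewhere in the genome, which these values do not separate. A further 6 probe sets carry a symbol with one of the prefixes beside a second symbol and were not counted: 3 for Cox7c with Gm12338, 2 for Ndufb4 with Ndufb4b and 1 for Ndufs5 with Ndufs5-ps. Of these genes Ndufs5 alone is among the 93 members, through another probe set. They differed by -0.071 to 0.015.

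Other mitochondrial genes were taken from lists written by gene or by prefix. Each list had 0 members past the threshold in either direction, where 29 of all 19938 genes, or 0.145%, passed. Genes of the mitochondrial ribosome, which makes the subunits encoded in the mitochondrial genome, shared the array pattern: 43 of 77 (55.8%) had Ly-6C-negative replicate 2 highest and replicate 3 lowest, with a median gap of 0.37 and a median difference of -0.0085. In the mitochondrial import list 7 of 24 (29.2%) did, with a median gap of 0.17 and a median difference of -0.0083; the smallest p was that of Tomm40l, with a difference of -0.21 (limma adjusted p = 0.594). Among 26 of 28 further assembly factors 8 (30.8%) did, with a median difference of 0.028, and Lyrm7 and Cox18 differed by 0.16 and 0.16. The adenine nucleotide carriers Slc25a4 and Slc25a5 differed by -0.10 and 0.11.

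In the lists that feed electrons or control the genes, the array pattern was counted as follows. The genes named here were picked by their values, as those with the smallest p of their list. Of 22 of 24 TCA cycle and pyruvate genes, 6 (27.3%) showed it, with a median gap of 0.015 and a median difference of -0.016. Pdk1, the kinase that restrains pyruvate entry, measured 9.56, 9.53 and 9.69 against 9.31, 9.14 and 9.46. It differed by -0.29 (standard error 0.090, limma adjusted p = 0.551). Its groups did not overlap, which held for 1 of the 22 genes, against 12.6% of all genes. Of 18 of 19 electron carriers and their suppliers 1 showed the pattern, and Pdss2, which makes the tail of ubiquinone, differed by -0.22 (limma adjusted p = 0.588). Of 19 of 20 regulators of mitochondrial biogenesis 1 did, with a median gap of -0.015. Tfb1m, a methyltransferase for mitochondrial ribosomal RNA, measured 7.48, 7.65 and 7.58 against 7.21, 7.36 and 7.39. It differed by -0.25 (standard error 0.077, limma adjusted p = 0.535), with no overlap of the groups. Polg2, next by p in that list, was higher without overlap, with a difference of 0.11 (limma adjusted p = 0.813). Among the 19 regulators the groups did not overlap in 2 genes that were higher and 1 that was lower, against 12.6% of all genes. Of 10 of 12 uncoupling and antioxidant genes 2 showed the pattern, with a median difference of -0.045, and the peroxiredoxin gene Prdx3 differed by -0.17 (limma adjusted p = 0.732). The differences between lists in the share with the pattern were not tested.

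Of the 13 protein genes of the mitochondrial genome, 2 were measured by probe sets with 1 symbol. COX2, a core subunit of complex IV, measured 12.49, 12.35 and 12.33 in Ly-6C-positive and 12.23, 12.47 and 12.42 in Ly-6C-negative arrays and differed by -0.017 (standard error 0.082). ND3, a core subunit of complex I, measured 11.92, 11.81 and 11.68 against 11.74, 11.89 and 11.91 and differed by 0.044 (standard error 0.083). Neither was highest on Ly-6C-negative replicate 2, and on replicate 3 both lay inside the range of the Ly-6C-positive arrays.

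**Figure D5:**
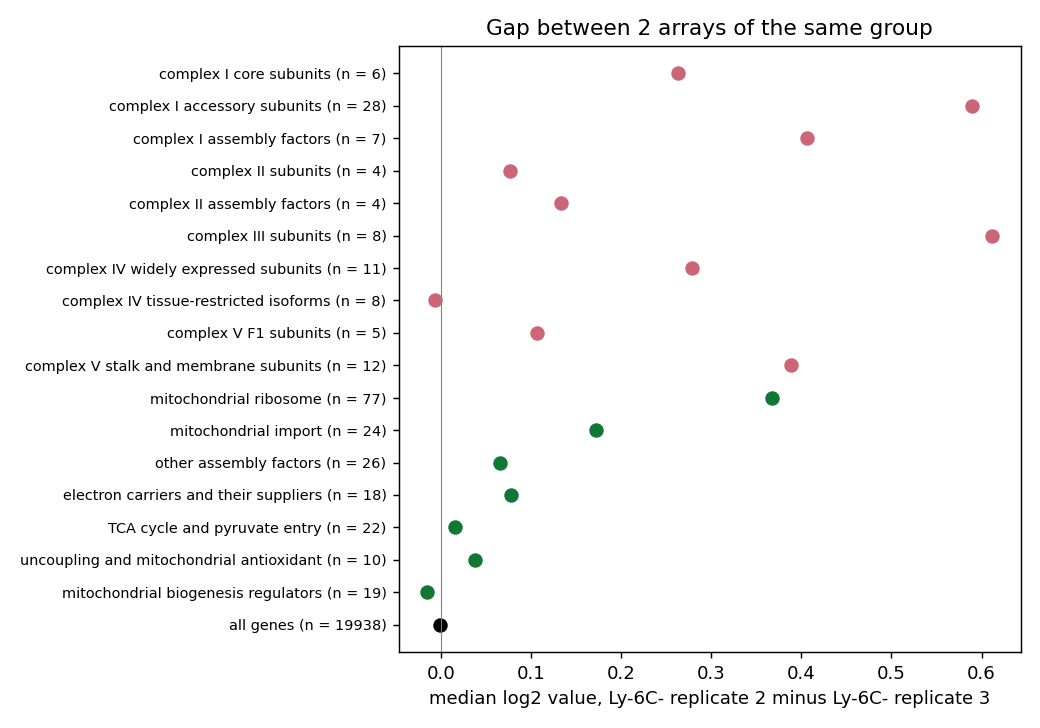
Median log2 gap between Ly-6C-negative replicates 2 and 3 for the roles of the respiratory chain genes (red), for other mitochondrial lists (green) and for all genes (black), with the number of genes in each. The gap is widest for complex III subunits (0.61) and complex I accessory subunits (0.59), 0.37 for the mitochondrial ribosome, and near 0 for tissue-restricted complex IV isoforms, TCA cycle genes, biogenesis regulators and all genes.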

How the data were processed

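The deposited log2 expression values of 6 Affymetrix mouse arrays were used. The submitters' processing notes name RMA and Partek without a version. RMA includes quantile normalization, which removes any change of RNA shared by all genes, and compresses dim genes. Per the labels' protocols, 50 ng of column-purified RNA was amplified and 5 µg of cDNA labelled with biotin. The chip description is not given in the sources used here. Values ran from 2.47 to 13.56.

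Of 28853 probe sets, 21789 had 1 symbol in the platform annotation, 1621 several and 5443 none; the last 2 kinds were left out of the 19938 genes. All 93 members carry their current RefSeq symbol. Differences were tested with limma 3.58.1 (R 4.3.3; lmFit and eBayes, 2-sided, 5.56 prior degrees of freedom, no covariate, no filter) across all genes with Benjamini-Hochberg adjustment. The step was tested on simulated data. The members and lists were chosen with earlier results of these data known.

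All members may be named. Those followed through the alternatives had the smallest p, were extremes of a role or catalytic subunits, or belonged to isoform pairs other than Cox7b2 and Cox7b. Array values are printed for part of them. Members printed for the array pattern or a promoter, and those listed by array order, were chosen after their values were seen. Same-numbered arrays deviated together, with r of 0.129, 0.128 and 0.107 over all genes for replicates 1, 2 and 3; over the members these were 0.162, 0.309 and 0.0027. Arrays of different number had r of -0.107 to -0.011 over all genes and of -0.28 to 0.25 over the members. Deviations were taken from the group's own mean, so values above 0 for some arrays go with values below 0 for others. The pairing is read from the all-gene values, which are small, and is not stated in the labels. Alternatives were a replicate block, other scalings, dim genes left out, every probe set or their mean, other eBayes settings, array weights, each array left out and an adjusted p of 0.1. Figures were drawn with matplotlib 3.10.9.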

Additional observations from a re-analysis of the deposited data

How the results depend on the processing

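The alternatives left 0 members past the threshold in every case, with the replicate block and without Ly-6C-negative replicates 2 and 3 included. The lowest limma adjusted p of a member was 0.335, for Ndufc1 without Ly-6C-negative replicate 2. Over all genes 29 passed, with array weights 54, with 1 array left out 5 to 47 and without Ly-6C-negative replicates 2 and 3, chosen after seeing the data, 18. Members above 0 numbered 17 to 76 with 1 array left out, the extremes being those without Ly-6C-negative replicate 2 and without replicate 3; they were 56 after subtraction of array medians and 36 after a second quantile normalization or with array weights. The median difference lay between -0.10 and 0.10. Members whose groups do not overlap numbered 5 after a second quantile normalization (5.38%, against 12.0% of all genes) and 3 to 19 with 1 array left out (3.23% to 20.4%, against 20.8% to 27.0% of all genes), when fewer arrays have to separate. The paired fit changed no call of a member.

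The direction of single members was not stable. Of 512 values of 37 named members under the alternatives, none passed the threshold, but 46 had the opposite sign, in 22 members, and 36 of these came from leaving out 1 array. With array weights Atp5b turned to 0.015, Ndufs1 to 0.010, Sdha to 0.0023 and Sdhb to -0.0081. After subtraction of array medians Atp5g1 turned to 0.023 and Ndufs1 to 0.012, and with the mean of probe sets Atp5g1 turned to 0.0007. After a second quantile normalization Cox8a turned to -0.0072, Sdhb to -0.018 and Uqcrc1 to -0.013. The cause was not tested.

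With 1 array left out, the differences ranged as follows. The difference of Atp5b ran from -0.085 to 0.049, Atp5c1 from -0.0093 to 0.044, Atp5g1 from -0.10 to 0.12 and Cox4i2 from -0.083 to 0.057. That of Cox5a ran from -0.092 to 0.21, Cox6a1 from -0.17 to 0.034, Cox6a2 from -0.056 to 0.013 and Cox6b1 from -0.13 to 0.072. That of Cox6b2 ran from -0.031 to 0.12, Cox7a2 from -0.10 to 0.039, Cox8a from -0.052 to 0.070 and Cox8b from -0.089 to 0.088. That of Ndufa4 ran from -0.089 to 0.012, Ndufa4l2 from -0.15 to 0.047, Ndufaf4 from -0.024 to 0.18 and Ndufb8 from -0.046 to 0.37. That of Ndufs1 ran from -0.043 to 0.034, Ndufs8 from -0.046 to 0.22, Sdha from -0.069 to 0.036 and Sdhaf2 from -0.13 to 0.019. That of Sdhb ran from -0.11 to 0.12 and Uqcrc1 from -0.046 to 0.050. The 15 other named members, Ndufaf7 and Atp5g2 among them, kept their sign throughout. The number of arrays limits the precision.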
